A study of Mus musculus with 9 samples.

Results

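ATP-binding cassette (ABC) transporter genes were described in a mouse prostate cancer model, in lines grown from recurrent tumours and in the line they came from. Members were the annotated probe sets whose 1 gene symbol is Abc, a family letter from a to g and a number, which gave 48 genes, each with 1 probe set, of 22180 named genes on the array. Of these, 13 were grouped as drug efflux members (Abcb1a, Abcb1b, Abcg2 and the Abcc family), and the other 35 were described apart. The grouping is by gene name, so not every gene in it is a drug pump. All groups were of MYCCaP, a line cultured from a prostate tumour of a mouse with a MYC transgene that an androgen-responsive prostate promoter drives. The AZD1208 group held 3 lines, biological replicates, that recurred in castrated mice given AZD1208, an inhibitor of the PIM kinases, and that were grown without the androgen dihydrotestosterone. The vehicle group held 3 such lines from castrated mice given vehicle, grown the same way. The parental group was MYCCaP itself, grown with dihydrotestosterone and hybridised on 3 arrays that the labels call technical replicates, so it counts as 1 sample. Recurrence after castration and growth without androgen therefore cannot be told apart in any comparison with the parental line. Dose, duration, mouse age and the mouse behind each line were not stated in the sources used here.

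ABC proteins bind ATP on conserved domains and use it to move lipids, sterols, drugs, peptides or metabolites across membranes. P-glycoprotein (Abcb1), Abcg2 and several Abcc proteins pump many unrelated drugs out of cells and are known for multidrug resistance in tumours. The Abca family mainly moves lipids, and the Abce and Abcf proteins have the ATPase domains without a membrane part and act in translation.

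Values were log2 intensities from Affymetrix Mouse Gene 2.0 ST arrays, with array medians between 6.22 and 6.36. A probe set's level depends on its probes, so levels were compared between samples and not between genes. Tests covered 15526 genes, after the dimmest 30% (mean below 5.81) were set aside, and 34 of the 48 members were among them. The 14 members below that level were Abca6, Abca8a, Abca8b, Abca12, Abca13, Abca14, Abca15, Abca16, Abcb4, Abcb5, Abcb11, Abcd2, Abcg2 and Abcg3, with means between 3.69 and 5.72. They were not tested. The array AZD1208 3 had the narrowest interquartile range, 2.87 against 2.98 to 3.12 on the other arrays. Of 6 epithelial markers, 5 (Cdh1, Hoxb13, Krt14, Krt18 and Krt8) were above the level of the filter in all 7 samples, and Epcam was below it in all 7. Markers of other cells were also partly above it. Above it in all 7 samples were 6 of 8 fibroblast, 5 of 8 endothelial and 3 of 8 leukocyte markers. Below it in all 7 were Lum for fibroblasts, Emcn and Tek for endothelium and Ms4a1 and Ptprc for leukocytes.

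Promoters of 5 members are shown for the patterns described below: Abcb1a and Abcb1b are neighbouring drug efflux genes, Abcc4 and Abca2 had the smallest unadjusted p among members against the parental line, and Abca1 had the widest range between lines. Each is the 250 bases before the annotated start, 5′ to 3′ on the gene's strand, from RefSeq (GRCm38.p6). Capitals mark matches on either strand to 5 motifs. These are the E-box CACGTG (bound by MYC with MAX and by other factors), the CCAAT box CCAAT, the GC box GGGCGG, the TATA box TATAAA, and the element of the liver X receptor (LXR, a sterol sensor) in the form known from Abca1 itself. Abcb1a lies at chr5:8566841-8567090 and Abcb1b at chr5:8797897-8798146, both on the plus strand.
Abcb1a: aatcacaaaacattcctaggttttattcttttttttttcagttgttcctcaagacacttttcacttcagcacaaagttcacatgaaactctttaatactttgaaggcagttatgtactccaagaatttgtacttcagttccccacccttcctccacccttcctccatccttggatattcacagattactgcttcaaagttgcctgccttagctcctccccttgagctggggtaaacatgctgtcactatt
Abcb1b: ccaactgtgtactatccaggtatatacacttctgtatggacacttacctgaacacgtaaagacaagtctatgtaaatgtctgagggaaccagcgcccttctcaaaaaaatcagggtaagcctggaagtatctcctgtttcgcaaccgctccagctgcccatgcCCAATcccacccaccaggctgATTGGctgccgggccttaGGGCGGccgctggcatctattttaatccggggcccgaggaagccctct
Abcc4 is shown at the upstream one of its annotated starts, chr14:118706220-118706469 on the minus strand.
Abcc4: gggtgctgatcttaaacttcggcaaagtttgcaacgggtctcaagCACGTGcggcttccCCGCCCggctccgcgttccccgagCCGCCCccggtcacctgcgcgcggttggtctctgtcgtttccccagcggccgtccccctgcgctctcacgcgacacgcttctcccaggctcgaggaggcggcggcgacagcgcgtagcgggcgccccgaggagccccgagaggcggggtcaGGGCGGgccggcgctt
Abca2 is at chr2:25428349-25428598 on the plus strand and Abca1 at chr4:53159896-53160145 on the minus strand.
Abca2: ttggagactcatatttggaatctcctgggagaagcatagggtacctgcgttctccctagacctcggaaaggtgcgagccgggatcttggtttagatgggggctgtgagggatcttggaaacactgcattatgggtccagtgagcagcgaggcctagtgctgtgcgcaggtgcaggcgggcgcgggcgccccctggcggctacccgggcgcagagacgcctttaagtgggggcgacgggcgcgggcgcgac
Abca1: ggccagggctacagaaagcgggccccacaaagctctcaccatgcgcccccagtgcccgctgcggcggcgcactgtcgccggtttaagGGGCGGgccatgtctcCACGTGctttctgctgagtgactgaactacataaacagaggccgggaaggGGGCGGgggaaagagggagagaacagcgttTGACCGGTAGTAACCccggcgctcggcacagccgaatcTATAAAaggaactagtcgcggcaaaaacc
Of the 48 members, 38 had a promoter in the table, 45 promoters in all. An E-box was in 5 of the 45 (those of Abca1, Abca8a, Abca15, Abcc4 and Abcf1) and in 6.02% of all 32851 promoters of this length. It began 205 bases before the start in Abcc4 and 147 bases before it in Abca1. A GC box was in 20 of 45 and 32.7% of all, a CCAAT box in 13 of 45 and 33.8%, and a TATA box in 5 of 45 and 12.4%. The LXR element was found in Abca1, the gene its form was taken from, and in 0.0122% of all promoters. The Abcb1b window held 2 CCAAT boxes in opposite orientation and a GC box, while those of Abcb1a and Abca2 held none of the 5 motifs. In a global alignment the Abcb1a and Abcb1b promoters were identical at 47.2% of 271 columns. No other pair was aligned, so whether this differs from unrelated promoters was not tested.

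The comparison of AZD1208 with vehicle lines asks whether these genes differ between lines cultured from tumours that recurred with and without the inhibitor. None of the 34 members tested separated the groups. Abcb1a and Abcb1b encode the mouse forms of P-glycoprotein. Abcb1a was at 7.44, 8.41 and 7.72 in AZD1208 lines, against 7.88, 8.92 and 7.73 in vehicle lines and 8.01, 8.17 and 7.99 on the parental arrays. Abcb1b was at 9.41, 9.46 and 9.63 in AZD1208 lines, against 8.94, 10.19 and 9.71 in vehicle lines and 9.87, 10.05 and 9.76 on the parental arrays. Vehicle 2 was the highest line for both, and the AZD1208 and vehicle lines overlapped. The difference of AZD1208 from vehicle was -0.32 for Abcb1a (log2, SE 0.37, 95% interval -1.19 to 0.56). For Abcb1b it was -0.11 (SE 0.30, interval -0.82 to 0.60). Both signs turned without vehicle 2, to 0.055 for Abcb1a and 0.18 for Abcb1b. The lowest line was AZD1208 1 for Abcb1a but vehicle 1 for Abcb1b. Both genes lie side by side on chromosome 5 in RefSeq, next to Abcb4, a phospholipid transporter of bile. Whether a probe set also reads the closely related neighbour was not tested.

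Abcg2, the breast cancer resistance protein, was at 5.20, 5.06 and 5.20 in AZD1208 lines, against 5.20, 5.38 and 5.20 in vehicle lines and 5.20, 5.20 and 5.32 on the parental arrays. It gave the same value on 6 of the 9 arrays and lay below the level of the filter, so it was not tested.

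Abcc4 exports cyclic nucleotides, prostaglandins and drugs, and Abcc1 exports glutathione conjugates and drugs. Abcc4 was at 9.77, 9.34 and 9.58 in AZD1208 lines, against 9.49, 9.83 and 10.15 in vehicle lines and 9.12, 9.06 and 8.86 on the parental arrays. Every recurrent line was above every parental array. Abcc1 was at 9.92, 10.49 and 10.03 in AZD1208 lines, against 10.76, 10.12 and 10.11 in vehicle lines and 10.17, 10.14 and 10.04 on the parental arrays. Vehicle 1 and AZD1208 2 were its highest lines. AZD1208 and vehicle lines differed by -0.26 in Abcc4 (SE 0.21, interval -0.76 to 0.24), or by -0.095 without vehicle 3. In Abcc1 they differed by -0.19 (SE 0.24, interval -0.76 to 0.39), or by 0.031 without vehicle 1.

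Abcc5, a pump for nucleotide analogues, was at 8.49, 8.71 and 8.03 in AZD1208 lines, against 9.15, 8.44 and 8.46 in vehicle lines and 8.46, 8.45 and 8.24 on the parental arrays. Abcc3, an exporter of glucuronides, was at 7.10, 7.37 and 6.75 in AZD1208 lines, against 6.66, 7.89 and 6.88 in vehicle lines and 6.88, 6.70 and 6.80 on the parental arrays. Vehicle 1 was the highest line for Abcc5 and vehicle 2 for Abcc3. Abcc5 differed between AZD1208 and vehicle lines by -0.27 (SE 0.26), or by -0.04 without vehicle 1 and -0.42 without AZD1208 2. Abcc3 differed by -0.07 (SE 0.34), or by 0.30 without vehicle 2 and 0.09 without AZD1208 3. Abcc10, a pump for hydrophobic drugs, was at 7.67, 7.67 and 7.82 in AZD1208 lines, against 7.75, 7.67 and 7.79 in vehicle lines and 7.60, 7.57 and 7.44 on the parental arrays. Abcc10 gave the same value in AZD1208 1, AZD1208 2 and vehicle 2. Its range over the 6 recurrent lines, 0.15, was the smallest of the 34 members tested. Its difference of -0.019 turned sign without AZD1208 1 or AZD1208 2 (0.0064 each), without vehicle 3 (0.0085) and with quantile normalization (0.026).

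Abcc2, the apical conjugate pump, was at 6.17, 6.03 and 6.45 in AZD1208 lines, against 6.36, 6.31 and 6.62 in vehicle lines and 6.34, 6.24 and 6.33 on the parental arrays. Abcc6, the gene mutated in pseudoxanthoma elasticum, was at 6.91, 6.76 and 7.08 in AZD1208 lines, against 6.75, 6.73 and 6.94 in vehicle lines and 7.09, 6.98 and 7.23 on the parental arrays. All 6 recurrent lines were below the parental mean of Abcc6. Abcc8 and Abcc9 encode the sulphonylurea receptor subunits of ATP-sensitive potassium channels and are not pumps. Abcc8 was at 6.16, 6.27 and 6.59 in AZD1208 lines, against 6.32, 6.21 and 6.32 in vehicle lines and 6.29, 6.35 and 6.51 on the parental arrays. Abcc9 was at 6.59, 6.60 and 6.84 in AZD1208 lines, against 6.81, 6.30 and 6.76 in vehicle lines and 6.71, 6.68 and 6.81 on the parental arrays. Abcc12 was at 6.06, 5.93 and 6.45 in AZD1208 lines, against 5.94, 6.04 and 5.96 in vehicle lines and 6.21, 6.13 and 6.17 on the parental arrays. AZD1208 3 was the highest recurrent line in Abcc6, Abcc8, Abcc9 and Abcc12. Without it, the differences of AZD1208 from vehicle lines turned sign in Abcc8 (-0.062, against 0.063 with it) and Abcc9 (-0.029, against 0.052). That of Abcc8 also turned with array quality weights (-0.048) and that of Abcc9 without vehicle 2 (-0.11). Abcc6 differed by 0.11 (SE 0.15) and Abcc12 by 0.17 (SE 0.18), but by 0.029 and 0.012 without AZD1208 3. Abcc2 differed by -0.21 (SE 0.17), or by -0.12 without vehicle 3.

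**Figure D1:**
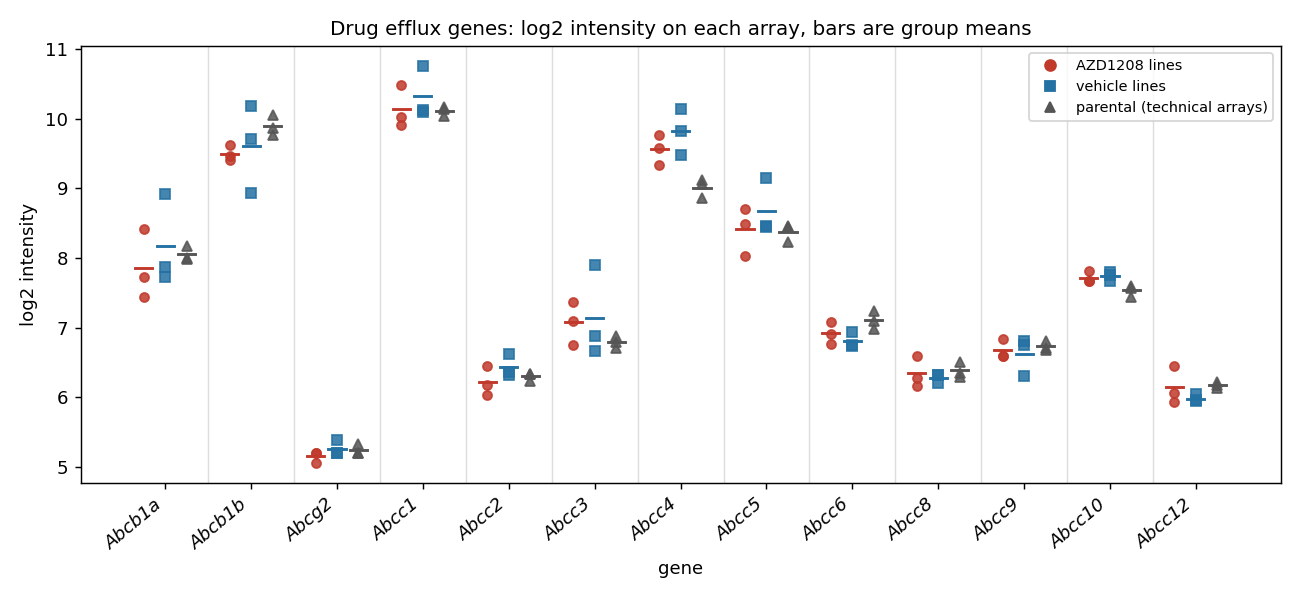
Log2 intensity (vertical axis) of the 13 drug efflux genes (horizontal axis) on each array, for AZD1208 lines (circles), vehicle lines (squares) and the technical parental arrays (triangles), with bars at group means. Recurrent lines lie above the parental arrays for Abcc4 and Abcc10, and vehicle 2 is the highest line for Abcb1a (8.92), Abcb1b (10.19) and Abcc3 (7.89).

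The other members with the smallest unadjusted p in this comparison were Abcb10, Abcg8, Abcf1, Abcf3 and Abca1. Abcb10, a mitochondrial transporter needed for haem synthesis, was at 9.17, 8.81 and 8.82 in AZD1208 lines, against 8.93, 9.18 and 9.28 in vehicle lines. AZD1208 1 lay among the vehicle lines, and the difference was -0.20 (SE 0.18). Abcg8, the partner of Abcg5 in sterol excretion, was at 5.84, 5.99 and 6.31 in AZD1208 lines, against 5.94, 5.77 and 5.99 in vehicle lines. Its difference of 0.15 (SE 0.17) was 0.013 without AZD1208 3. Abcf3, an ATPase of the translation group, was at 9.65, 9.53 and 9.34 in AZD1208 lines, against 10.37, 9.17 and 9.60 in vehicle lines. Its difference of -0.21 (SE 0.30) was 0.12 without vehicle 1 and 0.068 with array quality weights. Abcf1, an initiation factor partner, differed by -0.14 (SE 0.19), or by -0.022 without vehicle 3. Abca1, the cholesterol exporter, had the widest interval (-1.995 to 1.10) around a difference of -0.45. Its sign turned without AZD1208 1 (0.039) or vehicle 1 (0.023).

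Of the 12 drug efflux members tested, 4 were higher and 8 lower in AZD1208 lines, with a median difference of -0.091. Over all 34 members 11 were higher and 23 lower, with a median of -0.045 (-0.096 to -0.0065 with single replicates left out), where 45.2% of all 15526 genes were higher and their median was -0.02. None of the 34 passed an adjusted p of 0.05 (limma, Benjamini-Hochberg over all genes), where 0% of genes did. At an unadjusted p under 0.05 there were 0 members, against 0.522% of genes (0.155% higher and 0.367% lower). AZD1208 and vehicle lines overlapped in all 34 members, whereas 3.38% of genes had no overlap (1.41% higher and 1.97% lower). Between lines of the same number, AZD1208 minus vehicle was below 0 in all 3 pairs in Abcb1a (-0.44, -0.51 and -0.0042 for pairs 1 to 3) and Abcc2 (-0.19, -0.28 and -0.17), and above 0 in all 3 in Abcc6 (0.16, 0.028 and 0.13). That is 2 of 34 members lower, against 10.4% of genes, and 1 higher, against 7.08%. The p-values rest on 3 lines a group, and the intervals above leave room for differences of either sign.

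**Figure D2:**
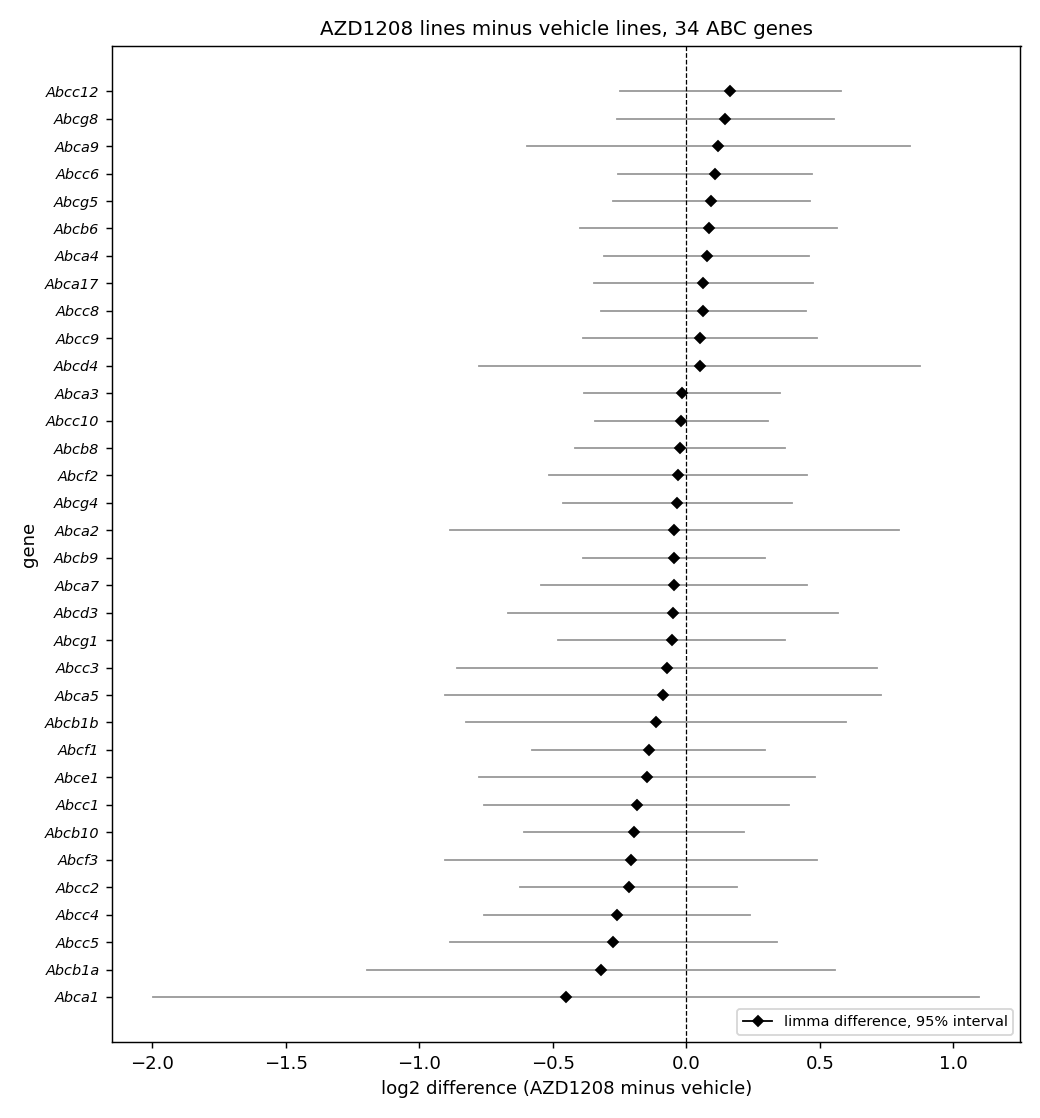
Log2 difference of AZD1208 from vehicle lines (horizontal axis) for the 34 ABC genes tested, with the limma estimate and its 95% interval (3 lines a group). Every interval includes 0, and the widest is that of Abca1 (-1.995 to 1.10).

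Against the parental line, several Abca lipid transporters had higher values in the recurrent lines. Abca2, a lipid transporter of endosomes and lysosomes, was at 8.76, 9.30 and 8.29 in AZD1208 lines and 9.47, 8.75 and 8.27 in vehicle lines, against 7.74, 7.65 and 7.61 on the parental arrays. All 6 recurrent lines were above all parental arrays. The difference was 1.14 (2.21-fold, SE 0.48, interval 0.03 to 2.26). Abca5, also of lysosomes, was at 9.11, 9.59 and 8.31 in AZD1208 lines and 9.52, 9.04 and 8.71 in vehicle lines, against 8.18, 8.55 and 8.18 on the parental arrays. AZD1208 3 lay 0.012 above the parental mean, within its technical SD of 0.21, and the other 5 lines further above it, with a difference of 0.74 (1.68-fold, SE 0.46). Abca3, the lung surfactant lipid transporter, was at 9.53, 9.85 and 9.62 in AZD1208 lines and 9.58, 9.82 and 9.65 in vehicle lines, against 9.55, 9.20 and 9.33 on the parental arrays. All 6 lines were above the parental mean, but AZD1208 1 was under the highest parental array, and the difference was 0.32 (SE 0.21).

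Abca7, a phospholipid transporter linked to Alzheimer's disease in humans, was at 7.78, 8.02 and 7.93 in AZD1208 lines and 7.57, 8.32 and 7.98 in vehicle lines, against 7.77, 7.49 and 7.72 on the parental arrays. Abca9 was at 5.88, 6.67 and 6.06 in AZD1208 lines and 6.19, 5.54 and 6.53 in vehicle lines, against 5.65, 5.52 and 5.82 on the parental arrays. In each, 5 of 6 lines were above the parental mean. Their differences were 0.27 (SE 0.28) for Abca7 and 0.48 (SE 0.41) for Abca9. Abca9 lies with Abca5, Abca6, Abca8a and Abca8b in a run on chromosome 11, in which only Abca5 and Abca9 were above the level of the filter. Abca9 was below that level (5.81) in the parental line (5.66) and in vehicle 2 (5.54). It passed only through its higher recurrent lines, so the filter itself favours a value above parental for Abca9. The list of Abca lipid transporters, which leaves out Abca1 and Abca7, had 6 genes tested (Abca2, Abca3, Abca4, Abca5, Abca9 and Abca17). Of these, 5 were higher than parental (45.5% of all genes), with a median of 0.40, against -0.022 over all genes tested. With the dim genes included, the list had 14 genes on the array. Of the 14, 8, 6 and 11 in AZD1208 lines 1 to 3 were above parental. In vehicle lines 1 to 3 the counts were 5, 3 and 9.

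Among the efflux genes, Abcc4 averaged 9.69 ± 0.29 in recurrent lines (SD, n = 6), against 9.01 in the parental line (technical SD 0.14). The difference was 0.68 (1.602-fold, SE 0.28, interval 0.021 to 1.34). Vehicle lines alone differed from parental by 0.81 and AZD1208 lines by 0.55, which share the parental sample. Abcc10 differed by 0.19 (SE 0.18) and Abcc6 by -0.24 (SE 0.20). For Abcb1b the difference was -0.34 (SE 0.40), with 1 line above the parental mean. For Abcb1a it was -0.04 (SE 0.49), with a sign that turned without AZD1208 1 (0.065), vehicle 1 (0.035), vehicle 3 (0.073) or parental array 2 (0.019). Abcc2 stood at 0.021 (SE 0.23) and turned without AZD1208 3 (-0.037), vehicle 3 (-0.026) or parental array 2 (-0.01). Abcc1 (0.12), Abcc3 (0.32), Abcc5 (0.17), Abcc8 (-0.073), Abcc9 (-0.085) and Abcc12 (-0.11) differed by less than their SE. With single replicates left out, Abcc1 ranged over 0.012 to 0.18, Abcc3 over 0.13 to 0.44 and Abcc5 over 0.049 to 0.26, and Abcb1b over -0.49 to -0.17. The 12 efflux members tested were 6 higher and 6 lower, with a median of -0.0093 that turned sign with single replicates left out (-0.021 to 0.049).

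Abce1 splits ribosomes for reuse, and the Abcf proteins also act in translation. Abcf1 was at 10.25, 10.06 and 10.04 in AZD1208 lines and 9.93, 10.35 and 10.50 in vehicle lines, against 10.61, 10.51 and 10.56 on the parental arrays. Abcf2 was at 11.59, 11.27 and 11.45 in AZD1208 lines and 11.09, 11.56 and 11.75 in vehicle lines, against 11.98, 11.85 and 11.96 on the parental arrays. All 6 lines were below all parental arrays for both genes, and vehicle 1 was the lowest for each. The differences were -0.37 for Abcf1 (SE 0.25) and -0.48 for Abcf2 (SE 0.27). Abcf3 differed by -0.20 (SE 0.39), with vehicle 1 alone above the parental mean. Abce1 was at 11.96, 11.60 and 10.89 in AZD1208 lines and 11.72, 11.60 and 11.57 in vehicle lines, against 11.51, 11.75 and 11.19 on the parental arrays. Its parental arrays differed among themselves (technical SD 0.29) by more than the difference of 0.071.

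Abcd3, which brings fatty acyl-CoA into peroxisomes, was at 9.16, 9.48 and 8.53 in AZD1208 lines and 9.39, 8.96 and 8.97 in vehicle lines, against 8.78, 8.75 and 8.65 on the parental arrays. AZD1208 3 alone was below the parental mean, and the difference was 0.36 (SE 0.35). Abcd4, needed for cobalamin to leave lysosomes, was at 9.36, 7.88 and 8.37 in AZD1208 lines and 8.33, 8.48 and 8.65 in vehicle lines, against 8.18, 8.20 and 8.19 on the parental arrays. AZD1208 lines held both its highest and its lowest value, and the difference was 0.32 (SE 0.47). The mitochondrial genes Abcb6, Abcb8 and Abcb10 differed from parental by 0.012, -0.12 and -0.16, and the lysosomal peptide transporter Abcb9 by -0.017. The sterol transporters Abcg1, Abcg4, Abcg5 and Abcg8 lay between -0.14 (Abcg4) and 0.045 (Abcg5). Abca4, known from the retina, and Abca17 stood at -0.13 and 0.13.

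**Figure D3:**
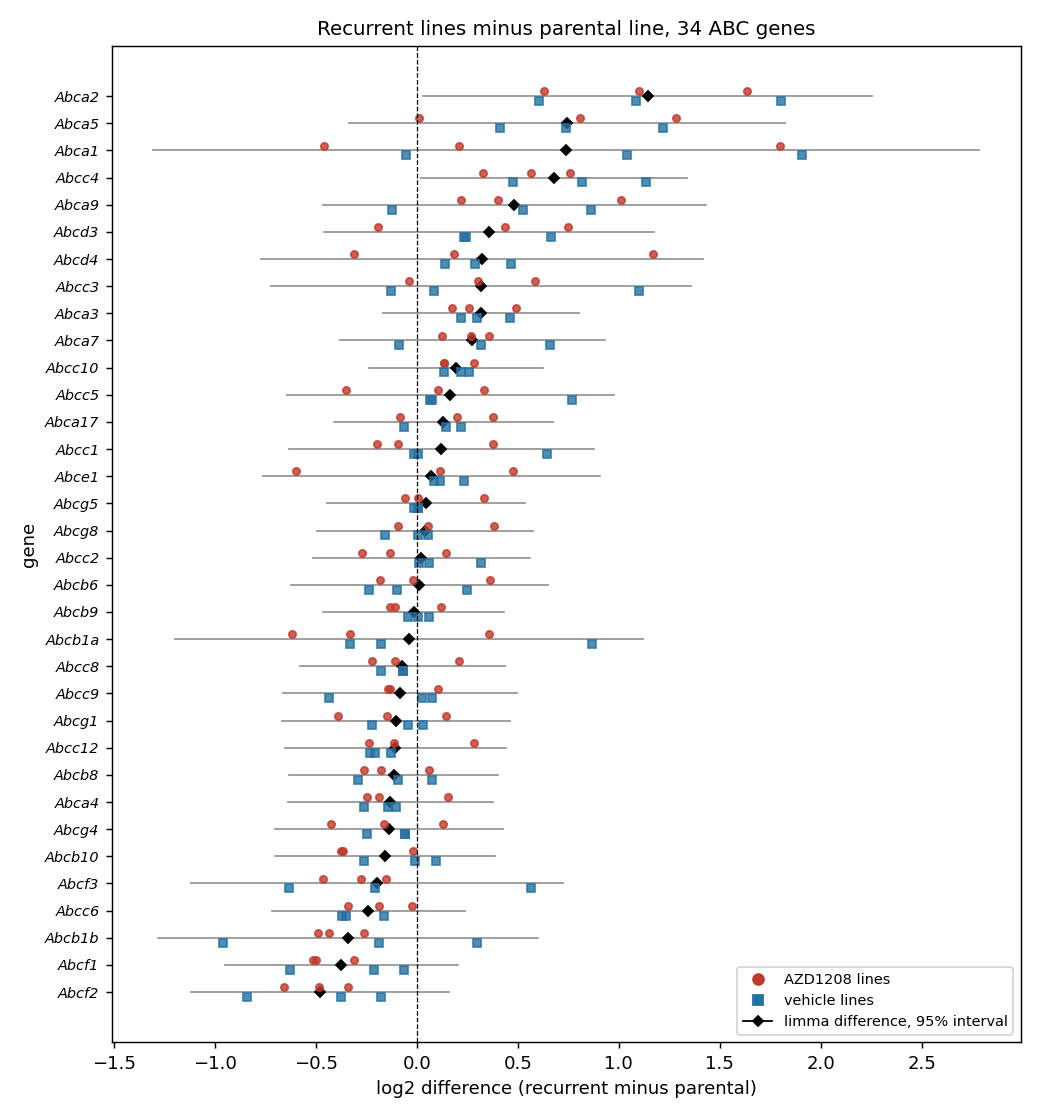
Log2 difference from the parental mean (horizontal axis) of each AZD1208 and vehicle line for the 34 ABC genes tested, with the limma difference of recurrent from parental and its 95% interval. The intervals of Abca2 and Abcc4 lie above 0 before adjustment, and Abca1 has the widest spread, between -0.46 in AZD1208 1 and 1.91 in vehicle 1.

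No member passed against the parental line, where 0% of genes did (limma). For recurrent against parental, Abca2 and Abcc4 had unadjusted limma p-values of 0.0455 and 0.0447, both with higher values. They were the only members under 0.05, which is 5.88% of the 34, against 2.76% of genes (2.02% higher and 0.747% lower). Their adjusted p was 0.9997 each (limma), or 0.080 for Abca2 and 0.080 for Abcc4 with the technical arrays as separate samples. That setting counts repeat arrays of 1 sample as independent, so it understates the spread of the parental line. With the replicate number as a blocking term 2 genes passed, Hp and Igfbp5, named after their values were seen, and no member. Over the 34 members 19 were higher and 15 lower than parental, with a median of 0.03 (-0.01 to 0.049 with single replicates left out), where 45.5% of genes were higher. All 6 recurrent lines were above the parental mean in 5 members (Abca2, Abca3, Abca5, Abcc4 and Abcc10), against 11.8% of genes, and below it in 3 (Abcc6, Abcf1 and Abcf2), against 10.8%. Without AZD1208 3 these counts were 8 and 7, against 19.5% and 22.2% of genes. Abcc5, Abcd3 and Abce1 were then added above, and Abca4, Abcc8, Abcc12 and Abcg4 below. Lines clear of all 3 parental arrays were higher in 3 members (6.94% of genes) and lower in 2 (5.06%).

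AZD1208 and vehicle lines were also set against the parental line apart, in comparisons that share that sample. In AZD1208 lines 17 of 34 members were higher (46.5% of genes), and 0 had an unadjusted p under 0.05, against 2.63% of genes (1.6% higher and 1.02% lower). All 3 AZD1208 lines were above the parental mean in 7 members (16.9% of genes) and below it in 6 (22%). In vehicle lines 18 of 34 were higher (46.4% of genes), and Abcc4 alone had an unadjusted p under 0.05, against 2.3% of genes (1.91% higher and 0.386% lower). All 3 vehicle lines were above in 10 members (25.4%) and below in 7 (26.3%).

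Single lines differed widely in several members. Abca1, which loads cholesterol onto apolipoproteins and is induced by LXR, was at 7.19, 9.45 and 7.86 in AZD1208 lines and 9.56, 7.60 and 8.69 in vehicle lines, against 7.58, 7.61 and 7.77 on the parental arrays. Vehicle 1 and AZD1208 2 stood 1.91 and 1.80 above the parental mean, vehicle 3 by 1.04, and the other lines were nearer to it. Its range over the recurrent lines was 2.37, the widest of the members tested, and its difference from parental was 0.74 (SE 0.87). Ranges above 1 on the log2 scale occurred in 11 of 34 members, against 18.9% of genes. They were Abca1, Abca2, Abca5, Abca9, Abcb1a, Abcb1b, Abcc3, Abcc5, Abcd4, Abce1 and Abcf3. Without AZD1208 3 there were 8, against 13.3% of genes, as Abca5, Abcc5 and Abce1 dropped out. After Abca1 the widest ranges were those of Abcb1a (1.49), Abcd4 (1.48), Abca5 (1.27), Abcb1b (1.26) and Abcc3 (1.23). The median SD of a member was 0.23 between AZD1208 lines and 0.22 between vehicle lines, against 0.0953 between the technical parental arrays. Over all genes tested these values were 0.25, 0.19 and 0.091. The median range over the recurrent lines was 0.59 in members and 0.63 over all genes tested.

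AZD1208 2 and vehicle 1 were the highest pair of recurrent lines in Abca1, Abca2, Abca5, Abcc1, Abcc5 and Abcd3. These were 6 of 34 members, where the same pair was highest in 8.78% of all genes. AZD1208 3 and vehicle 1 were the highest pair in as many, namely Abca4, Abca17, Abcc8, Abcc9, Abcg1 and Abcg4, against 9.17% of genes. AZD1208 2 and vehicle 1 lay at one end of the first principal component of all genes tested (44.9 and 38.8, against -17.8 to 20.5 in the other recurrent lines). Summed fibroblast markers (8 genes, log2) were 10.32, 11.23 and 10.15 in AZD1208 lines and 10.79, 10.15 and 10.10 in vehicle lines, against 9.86 in the parental line, highest in these 2 lines. The sum was carried by Pdgfra, at 2.37 above parental in AZD1208 2 and 2.56 in vehicle 1, and by Pdgfrb, at 2.93 in AZD1208 2. Col1a1, Col1a2, Col3a1 and Thy1 were below parental in both lines. Of these 8 markers, 2, 3 and 7 in AZD1208 lines 1 to 3 and 2, 2 and 3 in vehicle lines 1 to 3 were above the parental value. Summed epithelial markers (6 genes) were 11.12, 10.06 and 10.39 in AZD1208 lines and 10.31, 10.61 and 10.56 in vehicle lines. They were lowest in AZD1208 2 and vehicle 1, against 10.61 in the parental line. The mean log2 difference of the 6 genes from parental was lowest in AZD1208 2 (-0.43) and vehicle 2 (-0.30), with vehicle 1 at -0.27. Krt8 differed from parental by -0.94 in AZD1208 2 and -0.65 in vehicle 1, but by 0.57 in vehicle 2. Above parental were 2, 0 and 0 of the 6 in AZD1208 lines 1 to 3. In vehicle lines 1 to 3 the counts were 1, 1 and 2. For 8 endothelial markers the counts were 1, 0 and 6 in AZD1208 lines and 1, 1 and 3 in vehicle lines. Summed leukocyte markers (8 genes) were 8.88, 9.37 and 9.07 in AZD1208 lines and 9.36, 9.28 and 8.96 in vehicle lines, against 8.94 in the parental line, with 1, 4 and 5 in AZD1208 lines 1 to 3 and 5, 4 and 3 in vehicle lines 1 to 3 above parental. The leukocyte marker Lyz2 stood 1.24 above parental in AZD1208 2, 1.92 in vehicle 1 and 1.78 in vehicle 2. The part of these markers in the ABC values was not tested. In whole cultures, fewer cells of a type and less RNA per cell cannot be told apart.

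AZD1208 2 and vehicle 2 were the highest pair in Abca3, Abca7, Abcb1a and Abcc3 (4 of 34 members, against 8.28% of genes). Abcb1b shared its highest line, vehicle 2, with Abcb1a, but vehicle 3 came next.

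**Figure D4:**
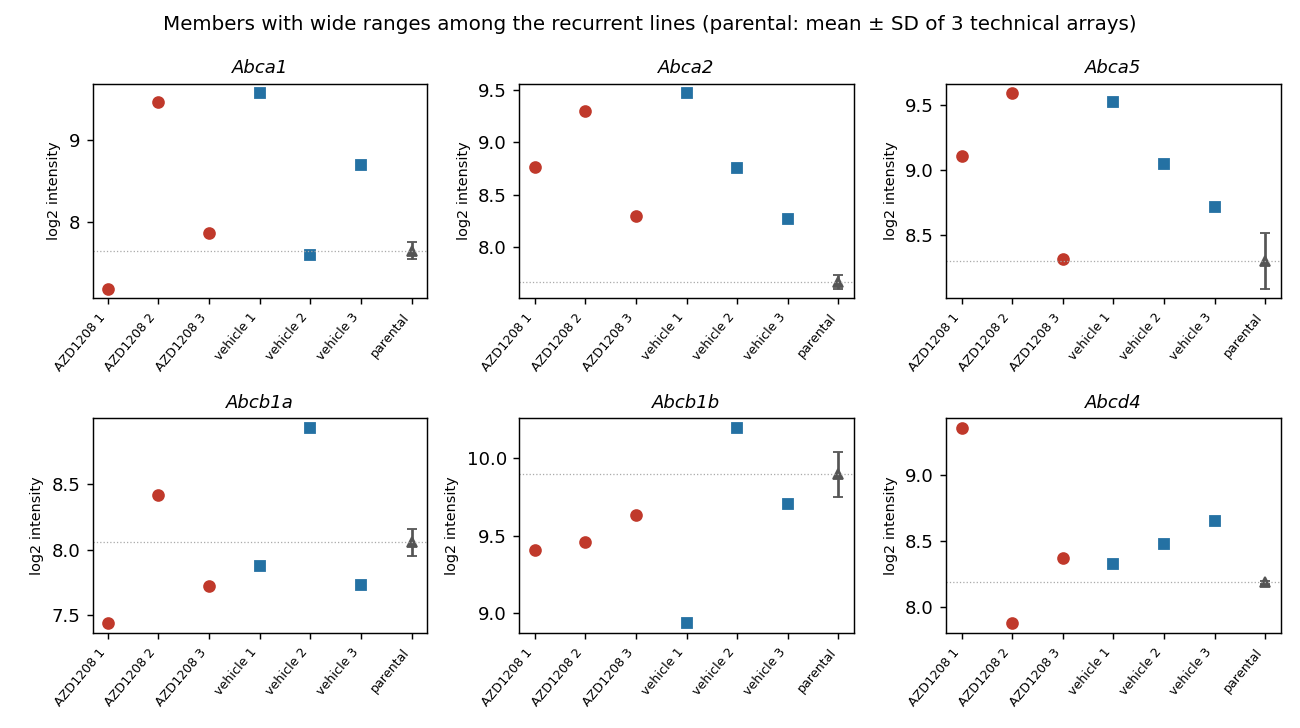
Log2 intensity (vertical axes, a panel per gene) in each AZD1208 line (circles), vehicle line (squares) and the parental line (triangle) for 6 ABC genes with a wide range between lines, with the technical SD of the 3 parental arrays as an error bar. Vehicle 1 and AZD1208 2 are high for Abca1, Abca2 and Abca5, vehicle 2 for both Abcb1 genes, and AZD1208 1 for Abcd4 (9.36).

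AZD1208 3 differed from the other lines according to the level of the gene. Among the 17 members of lower mean it was the highest recurrent line in 12, and among the 17 of higher mean in 0. It lay above the mean of the other 5 lines in 13 of the 17 lower members (median 0.26) and in 1 of the 17 higher members (median -0.25). Over all genes tested, split at the same level, it was the highest line in 45.4% of the lower and 5.54% of the higher genes. It lay above the mean of the other 5 lines in 68.8% of the lower (median 0.16) and 32.3% of the higher genes (median -0.14). The same direction by level was present over all genes. The largest departures among members were -0.88 for Abca5 and -0.80 for Abce1.

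**Figure D5:**
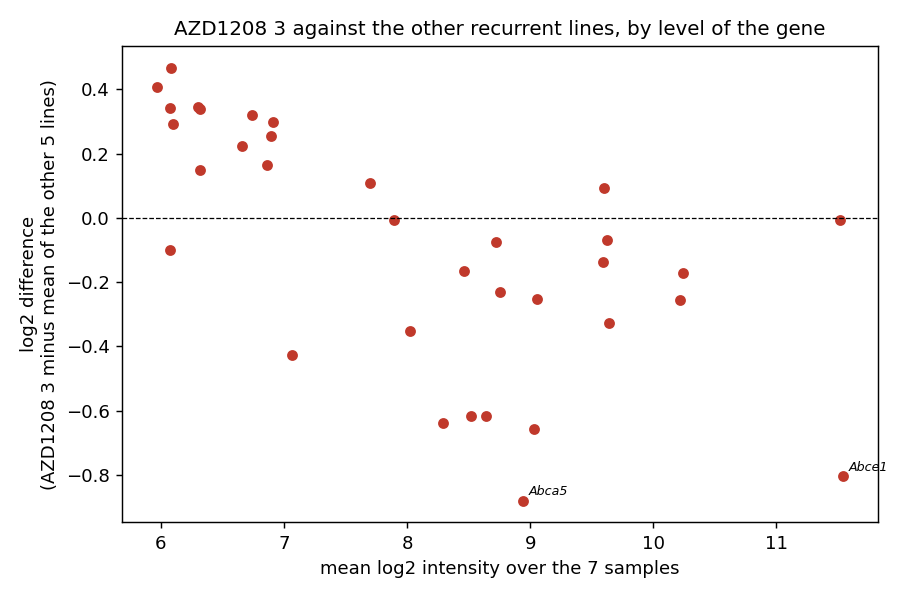
Log2 difference of AZD1208 3 from the mean of the other 5 recurrent lines (vertical axis) against the mean log2 intensity over 7 samples (horizontal axis), with a point for each of the 34 ABC genes tested. Genes of low mean lie mostly above 0 and genes of high mean mostly below it, with Abca5 (-0.88) lowest.

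Genes that work with ABC transporters were read from lists by role. On the list of xenobiotic receptors and conjugating enzymes, 10 of 16 genes tested were higher than parental in the recurrent lines and 6 lower. Their median difference was 0.069, against -0.022 over all genes tested. Over all genes tested 45.5% were higher. Among the lower was the receptor Ahr (-0.80, SE 0.57), with all 6 lines below all parental arrays, as in 5.06% of genes. The glutathione transferases Gsta4 and Gstm1 and the sulphotransferase Sult1a1 make conjugates of the kind that Abcc pumps carry. Gsta4 was at 9.72, 9.75 and 8.86 in AZD1208 lines and 8.83, 9.48 and 8.83 in vehicle lines, against 7.84 in the parental line. All 6 lines were above the parental mean in Gsta4 (2.65-fold, 1.41, SE 0.39), Sult1a1 (2.28-fold, 1.19, SE 0.38) and Gstm1 (2.05-fold, 1.04, SE 0.35). These 3 had an unadjusted p under 0.05 (0.00849, 0.0158 and 0.0189, limma), and none passed after adjustment. Of all genes tested, 2.02% were higher at this p and 11.8% had all 6 lines above the parental mean.

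On the list of sterol sensing and efflux, 11 of 14 genes were higher than parental and 3 lower, where 45.5% of all genes were higher. Their median difference was small, 0.085 against -0.022 over all genes tested. Some of the higher genes were near 0, such as Lcat (0.0045, SE 0.25), Srebf2 (0.013, SE 0.25) and Scarb1 (0.030, SE 0.24). Mylip, an LXR-induced ligase that removes the LDL receptor, was at 8.99, 10.01 and 9.07 in AZD1208 lines and 9.88, 9.41 and 8.75 in vehicle lines, against 8.44 in the parental line (0.91, SE 0.48). AZD1208 2 and vehicle 1 were its highest lines, as for Abca1 and Npc1, but not for Abcg1 or Srebf1. Abcg1 differed from parental by -0.39 in AZD1208 2, its lowest line, and by 0.031 in vehicle 1. Srebf1 differed by 0.046 and 0.025 in these lines. Induction by LXR was not tested. Npc2, which hands cholesterol out of lysosomes, differed by 0.46 (SE 0.26) and the lipoprotein Apoe by 0.24 (SE 0.19), each above parental in 6 of 6 lines. Of 11 drug uptake carriers tested, 7 were higher than parental (45.5% of all genes) and 4 lower, with a median difference of 0.074. The peptide carrier Slc15a2 lay between 7.35 (AZD1208 3) and 10.74 (AZD1208 2) in recurrent lines, against 7.01 in the parental line (1.81, SE 1.08). The nucleoside carrier Slc29a2 was below parental in 6 of 6 lines (-0.53, SE 0.29), and the toxin extruder Slc47a1 differed by 0.42.

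Tap1 and Tap2, ABC-fold genes of antigen presentation, differed from parental by -0.10 and 0.35, and their partner Tapbp by 0.46. Of haem and iron-sulphur genes 5 of 12 were higher than parental, of peroxisomal oxidation genes 5 of 8 and of ribosome recycling genes 3 of 6. Over all genes tested the share was 45.5%. No list was tested as a set. The genes of smallest unadjusted p on these 3 lists were Alad of haem synthesis (-0.45, SE 0.26), Pex19 of peroxisome assembly (-0.26, SE 0.27) and Pelo of ribosome rescue (-0.26, SE 0.20). No gene of these lists passed an adjusted p of 0.05 in any of the 4 comparisons (limma).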

How the data were processed

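The values analysed are the authors' deposited log2 intensities for 9 arrays. The submitters' processing notes name oligo, with version, background correction, normalization and build not given in the sources used here. Of 41345 probe sets, 23521 had 1 symbol in the platform annotation, 1814 several and 16010 none here. All 48 members matched RefSeq (GRCm38.p6) by Entrez identifier. Each gene was read from its probe set of highest mean.

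Parental arrays were averaged and the 7 samples fitted in limma 3.58.1 (lmFit, eBayes; R 4.3.3) by group, with 4 residual and 3.36 prior degrees of freedom. The spread of the lines stood in for that of the single parental sample. Adjustment was by Benjamini-Hochberg over 15526 genes. The procedure was tested on simulated data, and the number of arrays limits precision. Members and lists were chosen with earlier results of these data known. Values by sample are given for the efflux members, for the 5 and 8 other members of smallest unadjusted p (AZD1208 against vehicle, recurrent against parental), and for the 6 of widest range. Up to 3 genes are named per partner list, by smallest unadjusted p, and remaining members by their difference.

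AZD1208 and vehicle lines share replicate numbers. Deviations from group means correlated at 0.15, 0.12 and 0.53 for lines 1, 2 and 3. AZD1208 2 and vehicle 1 correlated at 0.26, above the values for lines 1 and 2. The data therefore do not settle whether the numbers pair the lines. No label gives a shared source. The main fit had no block. Alternatives were the replicate block, quantile normalization, median centring, other filters, array quality weights, parental arrays as separate samples, and each replicate left out. Differences within same-numbered lines were added after seeing the data.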

Additional observations from a re-analysis of the deposited data

Results flagged for a closer look

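Over the 48 members, the 6 recurrent lines were checked for an end value whose gap to the nearest line is large for the range (Dixon's 95% value). For normally distributed values, chance gives such an end value in about 1 of 20 genes. How many of all genes show such a value was not counted. AZD1208 3 was such a value on the high side in Abcc12 (6.45, next 6.06), Abcc8 (6.59, next 6.32) and Abcg5 (6.37, next 6.04), and on the low side in Abce1 (10.89, next 11.57). Among members under the level of the filter it was so in Abca15 (5.61, next 5.22). The others, also under that level, were vehicle 2 in Abca13 (4.56, next 4.73) and vehicle 3 in Abca8a (4.78, next 4.30). Some flagged genes held equal values in several lines. AZD1208 2, vehicle 1 and vehicle 2 were equal in Abcg5 (6.04), and AZD1208 2, vehicle 1 and vehicle 3 in Abca15 (5.22). Equal values also occurred in Abcc8, Abca8a and Abca13. Equal values are not normally distributed, so the rate of 1 in 20 need not hold for these genes.

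Abca8b, under the level of the filter, was at 5.70, 5.68 and 5.78 in AZD1208 lines, all above the parental mean of 5.63, and at 5.604, 5.49 and 5.51 in vehicle lines, all below it. The difference of AZD1208 from vehicle, 0.18, was not tested.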

How the results depend on the processing

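No member was called in any of the 4 comparisons under any of the 18 alternatives. Where the reported fit called 0 genes, recurrent against parental gave 156 with the parental arrays as separate samples, 2 with the replicate block and 1 with array quality weights. AZD1208 against parental gave 41, 2 and 2, and 0 to 1 with single replicates left out (Hp, without vehicle 1). Vehicle against parental gave 53 with the parental arrays as separate samples. That setting counts repeat arrays of 1 sample as independent, so its larger counts rest on technical replicates. The replicate block changed no other call. For vehicle against parental the median of the members (0.053) was 0.0082 with quantile normalization, 0.092 with median centring, -0.0082 without the filter, 0.14 with the lowest 50% of genes left out and 0.0075 to 0.064 with single replicates left out. That of the drug efflux members (0.12) was 0.051 with quantile normalization, 0.16 with centring, 0.21 with the 50% filter and 0.014 to 0.14 with single replicates left out. For recurrent against parental the 50% filter gave the efflux members 0.14. With single replicates left out their median was -0.11 to -0.013 for AZD1208 against vehicle and -0.14 to 0.017 for AZD1208 against parental. Members with all recurrent lines above or below the parental mean numbered 8 and 7 without AZD1208 3, an alternative chosen after seeing the data (5 and 3 with it), which asks it of fewer lines. For AZD1208 against vehicle, signs turned in Abcc10 with quantile normalization (0.026), and in Abcc8 (-0.048) and Abcf3 (0.068) with array quality weights. With single replicates left out the ranges that crossed 0 were -1.09 to 0.039 for Abca1, -0.60 to 0.055 for Abcb1a, -0.45 to 0.18 for Abcb1b, -0.36 to 0.031 for Abcc1, -0.31 to 0.30 for Abcc3, -0.062 to 0.15 for Abcc8, -0.11 to 0.15 for Abcc9, -0.069 to 0.0085 for Abcc10 and -0.48 to 0.12 for Abcf3. For recurrent against parental they were -0.23 to 0.073 for Abcb1a and -0.037 to 0.067 for Abcc2. The cause of these changes was not tested. Detection calls were not used here, so how far above background the dim members lie is unknown.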
